A study of Arabidopsis thaliana with 18 samples.

Results

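The iron uptake genes IRT1, IRT2, FRO2, FIT1 and AHA2 were followed across wild type and 2 mutants of Arabidopsis thaliana with and without aluminium. They are 5 of the 32833 genes in the deposited count files, they were chosen by name for their part in taking iron up from the soil, and all 5 passed the filter on low counts. Poly(A) RNA of whole seedlings of the ecotype Col-0 was sequenced in 18 libraries, 3 in each of 6 groups. The groups were wild type, als3-1 and sog1-7, each with 0 or with 1.5 mM AlCl3. All seedlings, those without aluminium included, stood on soaked gel medium of pH 4.2 in constant light and were taken 84 h after sowing. als3-1 carries a mutant allele of ALS3, a gene of aluminium resistance. sog1-7, according to the series' design text, has lost the function of SOG1, a transcription factor of the DNA damage response, and tolerates aluminium. Each mutant was 1 line, and the iron supply of the medium is not given in the sources used here.

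Plants such as Arabidopsis take up iron by reduction. The plasma membrane proton pump AHA2 acidifies the soil around the root, the ferric chelate reductase FRO2 turns ferric into ferrous iron, and the transporter IRT1, which also carries zinc, manganese and other divalent metals, moves it into the root epidermis. The bHLH transcription factor FIT1 activates IRT1 and FRO2 together with partner bHLH proteins of subgroup Ib, and IRT2 is the close relative of IRT1 in the same epidermal cells.

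The upstream sequences of the 3 genes that fell in every genotype, IRT1, FRO2 and FIT1, are shown because bHLH proteins bind E-boxes, the letters CANNTG. Each is the 250 bases before the annotated start of the gene, read 5′ to 3′ on the gene's own strand from RefSeq's TAIR10.1 sequence, whose gene positions were the same as those in the deposited TAIR10 files for 99.94% of genes. Capitals mark a match to CANNTG, which is its own reverse complement and so was searched on both strands at once.
IRT1, chr4:10707094-10707343, plus strand: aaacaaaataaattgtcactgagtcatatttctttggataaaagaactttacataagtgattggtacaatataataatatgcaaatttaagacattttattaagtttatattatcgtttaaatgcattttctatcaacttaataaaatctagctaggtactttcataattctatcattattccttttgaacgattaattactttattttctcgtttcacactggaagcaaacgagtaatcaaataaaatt
FRO2, chr1:208745-208994, plus strand: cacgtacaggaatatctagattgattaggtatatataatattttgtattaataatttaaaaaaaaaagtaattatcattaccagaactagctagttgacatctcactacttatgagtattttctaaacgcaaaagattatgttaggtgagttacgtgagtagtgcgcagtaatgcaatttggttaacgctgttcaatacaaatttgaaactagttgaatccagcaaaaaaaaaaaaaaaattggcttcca
FIT1, chr2:12004408-12004657, plus strand: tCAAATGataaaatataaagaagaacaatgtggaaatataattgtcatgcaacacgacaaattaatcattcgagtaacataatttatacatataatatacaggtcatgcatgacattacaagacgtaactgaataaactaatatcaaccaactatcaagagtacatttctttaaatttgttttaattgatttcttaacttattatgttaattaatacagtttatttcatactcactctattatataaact
FIT1 had 1 match, CAAATG, beginning 249 bases before the start. IRT1 and FRO2 had none in this window, and neither had the windows of IRT2 and AHA2. Of 27438 promoters of the same length, 55.3% held a match to CANNTG and 6.49% held its special case CACGTG, which none of the 5 members had.

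IRT1 (AT4G19690, chromosome 4, 10707344 to 10709015, 3 exons) and IRT2 (AT4G19680, chromosome 4, 10703348 to 10704838, 3 exons) are neighbours on the plus strand, with 2505 bases and no other gene between them. FRO2 (AT1G01580, chromosome 1, 208995 to 213082, 8 exons) lies 1067 bases before FRO1 on the same strand. FIT1 (AT2G28160) lies on the plus strand of chromosome 2, 12004658 to 12006276, and AHA2 (AT4G30190) on the minus strand of chromosome 4, 14770395 to 14776247. None of the 5 overlaps another annotated gene. The aligned coding sequences of IRT1 and IRT2 were 76.16% identical, and the longest run they share is shown because reads lying within it could come from either gene.
IRT1, chr4:10707902-10707923, and IRT2, chr4:10703785-10703806, plus strand: tcactctagccattgactccat
This run has 22 bases, and no stretch of 25 bases in the IRT1 transcript was also found in that of IRT2. Only the transcript with the longest coding sequence was compared for each gene.

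The libraries held 25.56 to 44.57 (median 35.09) in units of 1e6 counts, and levels are given as counts per 1e6 counts (CPM) after scaling with the trimmed mean of M values. A single library had at least 89 counts for any member. Counts on 4 genes for ribosomal RNA made up 0.909% to 5.72% of the total in 15 libraries. They made up 0.0168% to 0.0286% in the other 3, here called low-rRNA libraries. All carried the number 2: the treated als3-1 library and both of sog1-7. SOG1 had 13.6 to 19.5 CPM and ALS3 1.55 to 7.88 CPM over the 18 libraries, with overlapping ranges in the 3 genotypes, so their transcript levels do not check the genotype labels. Markers of root epidermis, inner root tissue and green shoot were detected in all 6 groups, with no marker gene at 0 in any group. In RNA of whole seedlings, fewer cells of a type and less RNA per cell cannot be told apart.

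Aluminium lowered IRT1 in all 3 genotypes. In wild type, IRT1 had 171.9, 124.4 and 186.6 CPM in replicates 2, 3 and 4 at 0 mM and 73.01, 65.08 and 69.78 CPM at 1.5 mM. In als3-1 the values were 134.7, 91.05 and 97.33 CPM without and 11.44, 13.39 and 14.57 CPM with aluminium. In sog1-7 they were 53.33, 39.54 and 41.05 CPM without and 4.528, 5.767 and 5.583 CPM with it. Within each genotype the treated libraries lay below all untreated ones, and every same-numbered pair fell (3 of 3 pairs in each genotype). IRT1 fell by 1.22 ± 0.18 log2 units in wild type (adjusted p = 0.00181), by 3.04 ± 0.19 in als3-1 (adjusted p = 6.01e-07) and by 3.08 ± 0.19 in sog1-7 (adjusted p = 4.13e-07), with SE and n = 3 against 3 throughout, by edgeR's quasi-likelihood test with Benjamini-Hochberg adjustment. In linear terms these are falls of 2.32-fold, 8.21-fold and 8.44-fold. Ordered by mean level, the groups ran from wild type 0 mM over als3-1 0 mM, wild type 1.5 mM, sog1-7 0 mM and als3-1 1.5 mM down to sog1-7 1.5 mM, and the neighbours in this order overlapped only at its top, between wild type and als3-1 at 0 mM.

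**Figure D1:**
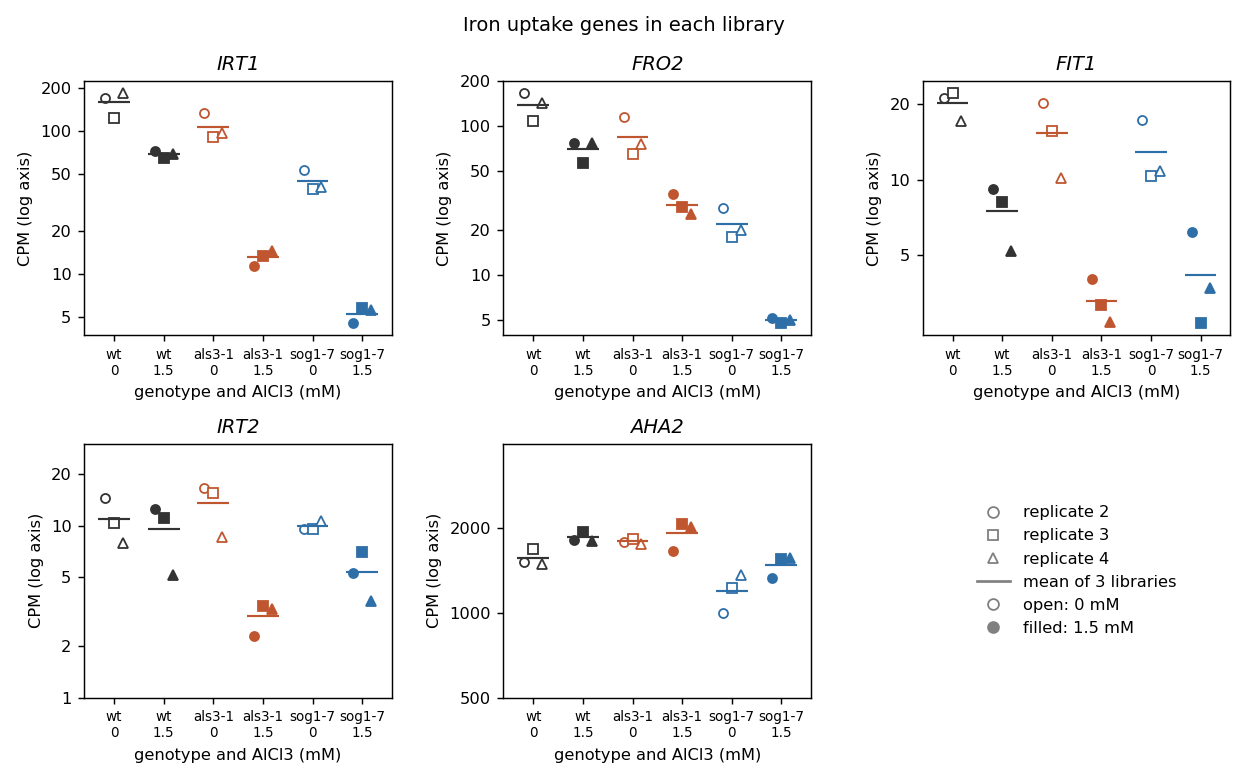
CPM of the 5 genes on log axes (vertical) in each of the 18 libraries, by genotype and AlCl3 concentration (horizontal); shapes are replicates, open points 0 mM, filled points 1.5 mM, and lines the arithmetic mean of 3 libraries. IRT1 and FRO2 go from means of 161.0 and 139.6 CPM in wild type without aluminium to 5.29 and 4.99 CPM in sog1-7 with it, while AHA2 stays between 999.6 and 2072 CPM.

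FRO2, the reductase, also fell in all 3 genotypes. Wild type libraries had 168.3, 107.9 and 142.6 CPM at 0 mM and 77.79, 56.7 and 77.76 CPM at 1.5 mM. Those of als3-1 had 114.9, 64.79 and 76.42 CPM without and 35.17, 28.71 and 25.62 CPM with aluminium. Those of sog1-7 had 28.37, 18.18 and 20.14 CPM without and 5.172, 4.764 and 5.046 CPM with it. Treated and untreated libraries did not overlap in any genotype, and the 3 treated sog1-7 libraries were nearly alike. The log2 fold change of FRO2 was −0.98 ± 0.22 in wild type (adjusted p = 0.0341), −1.52 ± 0.23 in als3-1 (adjusted p = 0.000501) and −2.15 ± 0.24 in sog1-7 (adjusted p = 0.000202). The wild-type call was lost when 0 mM replicate 2 or 4 was left out, or any 1 of the 1.5 mM replicates 2, 3 and 4 (adjusted p = 0.0705 to 0.154), though FRO2 was lower in 3 of 3 same-numbered pairs. With the replicate number as a block, its adjusted p in wild type was 0.00091. Same-numbered pairs of these groups correlated at 0.241 to 0.271, and 4 of 10 alternative fits ended the call. By mean level the first 3 groups of FRO2, wild type and als3-1 without and wild type with aluminium, overlapped with their neighbours. Further down, als3-1 with aluminium (29.83 ± 4.88 CPM, SD, n = 3) and sog1-7 without it (22.23 ± 5.41 CPM) were neighbours whose libraries overlapped.

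FIT1, the transcription factor, stood at lower levels. It had 21.23, 22.29 and 17.14 CPM in wild type at 0 mM and 9.154, 8.191 and 5.177 CPM at 1.5 mM. In als3-1 it went from 20.28, 15.71 and 10.13 CPM to 4.012, 3.178 and 2.702 CPM. In sog1-7 it went from 17.4, 10.38 and 10.86 CPM to 6.19, 2.674 and 3.691 CPM. Again no treated library reached an untreated one of its genotype. The log2 fold change was −1.43 ± 0.32 in wild type (adjusted p = 0.0303), −2.21 ± 0.33 in als3-1 (adjusted p = 0.000483) and −1.62 ± 0.32 in sog1-7 (adjusted p = 0.0178). In wild type the call ended without any 1 of the 6 libraries, that is replicate 2, 3 or 4 at 0 mM or at 1.5 mM (adjusted p = 0.0518 to 0.15), and in sog1-7 it was lost when the 0 mM replicate 2 or the 1.5 mM replicate 3 or 4 was left out (adjusted p = 0.0941 to 0.114). With the replicate number as a block, the adjusted p was 0.000863 in wild type and 0.000507 in sog1-7. Of 10 alternative fits, 3 ended the call in wild type: library totals alone (0.0856) and both FPKM fits (0.0926 and 0.0783). In sog1-7, 3 did so: only the groups compared (0.172) and both FPKM fits (0.0528 and 0.0531). The untreated groups of the 3 genotypes overlapped in FIT1, and so did neighbouring treated groups.

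IRT2, the neighbour and relative of IRT1, fell in als3-1. Its als3-1 libraries had 16.57, 15.51 and 8.551 CPM at 0 mM and 2.295, 3.422 and 3.279 CPM at 1.5 mM, a log2 fold change of −2.18 ± 0.35 (adjusted p = 0.000824). Wild type had 14.51, 10.31 and 7.901 CPM without and 12.58, 11.03 and 5.177 CPM with aluminium, which overlapped (log2 fold change −0.18 ± 0.33, adjusted p = 0.959). Values in sog1-7 were 9.528, 9.581 and 10.69 CPM against 5.317, 7.076 and 3.668 CPM, which did not overlap but did not pass the test over all genes (−0.89 ± 0.33, adjusted p = 0.35). The treated als3-1 libraries were below those of all other groups.

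AHA2, the proton pump, was not called in any Al response. It had 1524, 1685 and 1497 CPM in wild type at 0 mM and 1825, 1940 and 1806 CPM at 1.5 mM (log2 fold change 0.24 ± 0.15, adjusted p = 0.682). In als3-1 it had 1795, 1835 and 1761 CPM against 1663, 2072 and 2019 CPM (0.09 ± 0.15, adjusted p = 0.745). In sog1-7 it had 999.6, 1225 and 1369 CPM against 1330, 1556 and 1567 CPM (0.31 ± 0.15, adjusted p = 0.601). All 3 log2 fold changes were above 0, against the direction of the other 4 genes, though none was called.

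Counted over the 5 genes, 3 were called lower with aluminium in wild type, where 0.988% of all 21650 genes tested were called lower. In als3-1 the count was 4 of 5, with 6.29% of all genes called lower. In sog1-7 it was 3 of 5, with 0.448% of all genes called lower, and none was called higher in any genotype. The median log2 fold change of the 5 genes was −0.98 in wild type, −2.18 in als3-1 and −1.62 in sog1-7, while the median of all genes tested lay between −0.00477 and 0.0174. Averaged over the 3 genotypes, 4 of 5 fell, with 7.5% of all genes called lower. That mean response was −2.44 ± 0.11 for IRT1 (adjusted p = 2.11e-09), −1.08 ± 0.19 for IRT2 (adjusted p = 0.00127), −1.55 ± 0.13 for FRO2 (adjusted p = 1.25e-06) and −1.75 ± 0.19 for FIT1 (adjusted p = 1.16e-05). For AHA2 it was 0.22 ± 0.09 (adjusted p = 0.117). Without the 3 low-rRNA libraries all of these member calls were kept, with IRT1 at −2.94 in als3-1 and −2.83 in sog1-7, IRT2 at −2.01 in als3-1, FRO2 at −1.65 and −1.96, and FIT1 at −2.38 and −1.73.

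**Figure D2:**
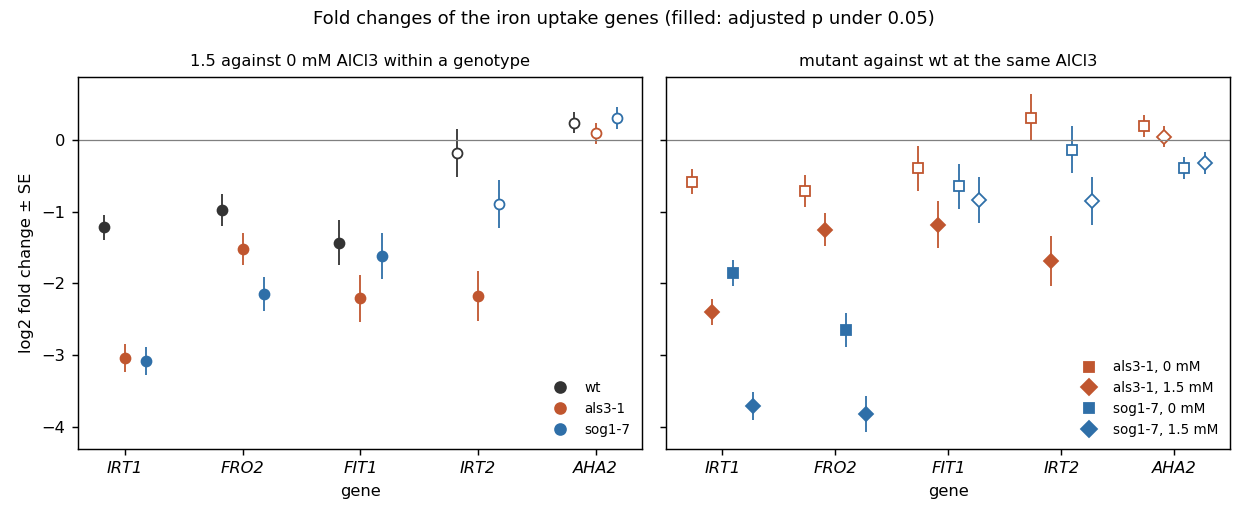
Log2 fold changes ± SE (vertical) of the 5 genes (horizontal) for 1.5 against 0 mM AlCl3 within each genotype (left) and for each mutant against wild type at the same concentration (right); filled points passed an adjusted p under 0.05, and in the legend all shapes are drawn filled. On the left IRT1 lies at −1.22 in wild type and at −3.04 and −3.08 in the mutants; on the right IRT1 and FRO2 are lowest for sog1-7 at 1.5 mM, at −3.71 and −3.82.

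The fall of IRT1 was deeper in both mutants than in wild type. Against wild type its Al response differed by −1.82 ± 0.25 log2 units in als3-1 (adjusted p = 0.00398, and 0.0583 and 0.0818 in the FPKM fits, which ended the call), 1 of 5 members called where 0.37% of all genes were called lower. In sog1-7 the difference was −1.86 ± 0.26 (adjusted p = 0.0482), and IRT1 was the 1 gene of all 21650 that passed (0.00462%). This second call rests near the threshold: it ended in 17 of 18 fits that left out 1 library (adjusted p = 0.0564 to 0.218) and held only without als3-1 0 mM replicate 2 (0.0176). It ended without the low-rRNA libraries too (−1.61, adjusted p = 0.447), while DESeq2 gave it an adjusted p of 2.39e-07. The difference itself stayed between −1.98 and −1.70 in those 18 fits. The 2 mutants did not differ detectably from each other in the Al response of IRT1 (0.04 ± 0.25, adjusted p = 0.995), and 0 of 5 members were called in that comparison, where 1.15% of all genes were, although IRT2 had an unadjusted p under 0.05 (0.016).

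Among the other members, the Al response of IRT2 differed from wild type by −2.00 ± 0.48 in als3-1 (adjusted p = 0.109). With the replicate number as a block, for which every same-numbered pair of these groups correlated above 0.1, this was −1.91 with an adjusted p of 0.0441, and without wild type 1.5 mM replicate 4 the adjusted p was 0.0251. For FRO2 the difference of sog1-7 from wild type was −1.17 ± 0.32, with an unadjusted p of 0.00229 that did not pass over all genes (adjusted p = 1). Differences from wild type for FIT1 were −0.79 ± 0.45 in als3-1 and −0.19 ± 0.45 in sog1-7, neither of them called.

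Without aluminium, sog1-7 already had less IRT1 and FRO2 than wild type. IRT1 had a log2 fold change of −1.85 ± 0.18 in sog1-7 (44.64 ± 7.56 against 161.0 ± 32.5 CPM, SD, n = 3, adjusted p = 8.15e-05). FRO2 had one of −2.65 ± 0.24 (22.23 ± 5.41 against 139.6 ± 30.3 CPM, adjusted p = 3.54e-05). These were 2 of 5 members and 4.92% of all genes were called lower. Over all genes this was 1146 higher and 1065 lower, or 1995 and 537 with library totals alone as the scale, under which IRT1 and FRO2 remained called. FIT1 (−0.65 ± 0.31, adjusted p = 0.218), IRT2 (−0.13 ± 0.33, adjusted p = 0.852) and AHA2 (−0.39 ± 0.15, adjusted p = 0.114) did not pass. Of 10 alternative fits, 2 called FIT1 lower and 3 called AHA2 lower. A term for the low-rRNA libraries gave −0.928 for FIT1 (adjusted p = 0.0172) and −0.299 for AHA2 (adjusted p = 0.0379). DESeq2 called AHA2 (adjusted p = 0.0231) but not FIT1 (adjusted p = 0.184). In als3-1 without aluminium 0 of 5 members were called against wild type by edgeR's quasi-likelihood test, where 2.32% of all genes were (185 higher and 317 lower, or 478 and 183 with library totals alone). IRT1 (−0.58 ± 0.18, adjusted p = 0.102) and FRO2 (−0.71 ± 0.22, adjusted p = 0.114) had unadjusted p of 0.00488 and 0.00612 there. With the replicate number as a block, whose 3 pairs correlated at 0.4 to 0.485, both passed, at adjusted p = 0.0487 for IRT1 and 0.00591 for FRO2, and DESeq2 called IRT1 (adjusted p = 0.046). Leaving out als3-1 0 mM replicate 2 also brought FRO2 below the threshold (adjusted p = 0.0483). Compared directly at 0 mM, als3-1 had more IRT1 (1.27 ± 0.18, adjusted p = 0.00544) and more FRO2 (1.94 ± 0.23, adjusted p = 0.00119) than sog1-7, 2 of 5 members with 0.222% of all genes called higher. The IRT1 call in this comparison ended without sog1-7 0 mM replicate 3 (adjusted p = 0.0513), with only the groups compared (0.137) and in both FPKM fits (0.121 and 0.109), and the FRO2 call ended with only the groups compared (0.0994). AHA2 was 0.59 ± 0.15 higher in als3-1 than in sog1-7 at an adjusted p of 0.117, and 0.0197 with the replicate block.

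With aluminium, 4 of 5 members were lower in als3-1 than in wild type, where 3.03% of all genes were called lower (552 higher and 655 lower, or 676 and 412 with library totals alone). IRT1 stood at 13.13 ± 1.58 against 69.29 ± 3.99 CPM (−2.40 ± 0.19, adjusted p = 1.29e-05). IRT2 (−1.69 ± 0.35, adjusted p = 0.00977) lost its call without als3-1 1.5 mM replicate 2 (0.0521) and without all low-rRNA libraries (0.0664). FRO2 had a log2 fold change of −1.25 ± 0.23 (adjusted p = 0.00438), and its call ended in both FPKM fits (0.0703 and 0.0684). FIT1 (−1.18 ± 0.33, adjusted p = 0.0469) lay at the threshold: its call ended in 12 of 18 fits without 1 library (0.0524 to 0.177). These left out any 1 of the treated als3-1 or untreated wild-type libraries, wild type 1.5 mM replicate 2 or 3, als3-1 0 mM replicate 3, sog1-7 0 mM replicate 3 or 4, or sog1-7 1.5 mM replicate 4. With the replicate block the adjusted p of FIT1 was 0.00297, while 4 of 10 alternative fits ended its call. In sog1-7 with aluminium 2 of 5 members were lower than in wild type, with 3.65% of all genes called lower (811 higher and 791 lower, or 1205 and 388 with library totals alone). IRT1 stood at 5.29 ± 0.67 CPM, 13.1-fold below wild type (−3.71 ± 0.20, adjusted p = 1.12e-07), and FRO2 at 4.99 ± 0.21 CPM, 14.2-fold below it (−3.82 ± 0.25, adjusted p = 1.21e-06). FIT1 had a log2 fold change of −0.84 ± 0.32 in sog1-7 against wild type (adjusted p = 0.128) and passed with the replicate block (adjusted p = 0.013), without the low-rRNA libraries (0.0264) and without sog1-7 1.5 mM replicate 2 (0.0404). Set against sog1-7, als3-1 with aluminium had more IRT1 (1.31 ± 0.19, adjusted p = 0.000567) and more FRO2 (2.58 ± 0.24, adjusted p = 1.68e-05), 2 of 5 members with 2.72% of all genes called higher. AHA2 was 0.37 ± 0.15 higher in als3-1 (adjusted p = 0.162), and the replicate block brought it to 0.0416. Comparisons that use the same group, such as wild type at 1.5 mM, share those libraries and are not independent of each other.

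Levels of different genes were compared per length, in the deposited FPKM values. AHA2 had the highest FPKM of the 5 genes in every group, with means of 297.2 to 484.4, and IRT1 was the second by mean in every group. The means per group of IRT1 ran from 111.9 FPKM in wild type without aluminium to 4.52 in sog1-7 with it, and those of IRT2 from 9.12 to 2.04. When CPM was divided by exon length instead, the order of the genes was the same in 4 of 6 groups. In als3-1 with aluminium FRO2 then stood above IRT1, and in sog1-7 with aluminium IRT2 did.

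IRT1 and FRO2 did not move in a fixed proportion. The ratio of IRT1 to FRO2 FPKM was 2.19 to 3.24 in wild type at 0 mM and 2.02 to 2.696 at 1.5 mM, which overlap. In als3-1 it went from 2.47 to 3.30 without aluminium down to 0.870 to 1.34 with it, and in sog1-7 from 4.89 to 5.30 down to 2.195 to 3.02. The untreated sog1-7 libraries had the highest ratios of all groups and the treated als3-1 libraries the lowest, in both cases clear of every other group. IRT1 was 12.6 to 29.0 times as high as IRT2 in wild type at 0 mM. In sog1-7 with aluminium the 2 genes were at near equal levels, with ratios of 0.977 to 1.73.

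**Figure D3:**
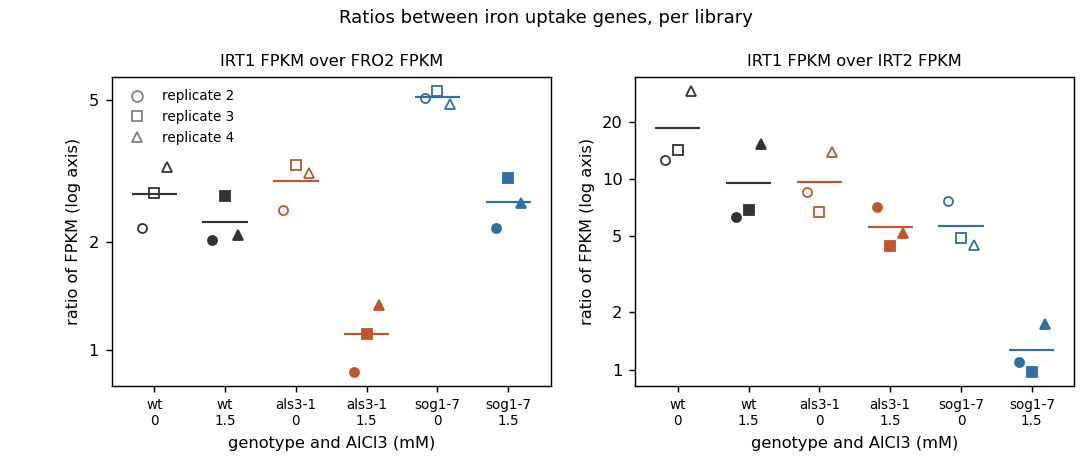
Ratio of IRT1 FPKM to FRO2 FPKM (left) and to IRT2 FPKM (right), on log axes, in each library by genotype and AlCl3 concentration; shapes are replicates and lines the arithmetic mean of 3 libraries. The left panel has its highest values in untreated sog1-7 (4.89 to 5.30) and its lowest in treated als3-1 (0.870 to 1.34); the right panel ends near 1 in treated sog1-7.

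Root markers were set beside these genes because IRT1 and FRO2 work in the root epidermis. The summed level of 9 root epidermis and root hair markers was 471.6 to 690.8 CPM in wild type without and 237.8 to 454.2 CPM with aluminium, 381.0 to 565.1 and 214.5 to 450.7 CPM in als3-1, and 513.1 to 621.0 and 339.2 to 492.0 CPM in sog1-7. Of these markers 9 of 9 had a fold change below 1 in wild type and in als3-1 and 8 of 9 in sog1-7, with medians of −0.62, −0.46 and −0.28 log2 units. Of all genes tested, 0.988% were called lower with aluminium in wild type, 6.29% in als3-1 and 0.448% in sog1-7. The epidermis markers called lower were 0 of 9 in wild type and in sog1-7, where 6 and 1 had an unadjusted p under 0.05, and 2 of 9 in als3-1, namely RSL4 (−0.94 ± 0.23), a root hair regulator whose call ended without als3-1 0 or 1.5 mM replicate 2 (adjusted p = 0.0649 and 0.0716) and without the low-rRNA libraries (0.0782), and WER (−1.17 ± 0.22), a regulator of non-hair cell fate. With the replicate block these counts were 3 in wild type, 5 in als3-1 and 0 in sog1-7. The part of this in the fall of IRT1 and FRO2 was not tested. Measured relative to the marker sum, IRT1 separated treated from untreated libraries in als3-1 (0.0297 to 0.0533 against 0.161 to 0.354) and in sog1-7 (0.0111 to 0.0165 against 0.0661 to 0.104), but not in wild type (0.143 to 0.293 against 0.180 to 0.365). FRO2 relative to the markers did so in sog1-7 (0.00968 to 0.0149 against 0.0324 to 0.0553) and overlapped in wild type and als3-1. Compared in same-numbered pairs, IRT1 relative to the markers still fell in each wild-type pair (0.3645 to 0.2398, 0.1801 to 0.1433 and 0.3198 to 0.2934). FRO2 relative to the markers fell in each als3-1 pair (0.3016 to 0.164, 0.1147 to 0.0637 and 0.1447 to 0.0900). In wild type it fell in replicates 2 and 3 and rose in replicate 4 (0.2444 to 0.327). Between wild type and sog1-7 the epidermis markers overlapped at 0 mM and at 1.5 mM, with 0 of 9 called in either comparison. The sum of 8 inner root markers was 318.9 to 390.4 CPM without and 279.5 to 340.5 CPM with aluminium in wild type, 279.3 to 371.3 and 250.7 to 306.7 CPM in als3-1, and 340.5 to 362.2 and 311.8 to 348.4 CPM in sog1-7. Their log2 fold changes with aluminium were below 0 for 8 of 8 in wild type (median −0.34), 7 of 8 in als3-1 (median −0.71) and 4 of 8 in sog1-7 (median −0.05). Of the 8, 0 were called in wild type and in sog1-7, where 1 and 0 had an unadjusted p under 0.05, and 2 were called lower in als3-1, where 6.29% of all genes were. The part of this in the fall of the uptake genes was not tested either. Among the called, CASP4, a gene of the Casparian strip, fell in als3-1 (−1.42 ± 0.34), and it lost its call without als3-1 0 mM replicate 3 or 1.5 mM replicate 2 or 3 (adjusted p = 0.0507 to 0.0611). Green shoot markers differed by genotype: the sum of 8 photosynthesis genes was 32160 to 40540 CPM in wild type without aluminium and 6474 to 11340 CPM in sog1-7, where 7 of 8 and 4.92% of all genes were called lower (median of the 8 −2.64), beside the lower IRT1 and FRO2 of that mutant. In als3-1 without aluminium it was 11330 to 23010 CPM, also clear of wild type, with 2 of 8 called lower (median −1.32), beside 317 of all 21650 genes. With aluminium the sum was 20170 to 41560 CPM in wild type, 19350 to 26470 CPM in als3-1 with 0 of 8 called (median −0.69, 3 with an unadjusted p under 0.05), and 11910 to 16120 CPM in sog1-7 with 4 of 8 called lower (median −1.67). Of all genes, 3.03% were called lower in als3-1 and 3.65% in sog1-7 there. Between 0 and 1.5 mM the sums overlapped in wild type and als3-1 but not in sog1-7. The Al responses of the shoot markers were below 0 for 8 of 8 in wild type (median −0.217). They were below 0 for 0 of 8 in als3-1 (median 0.51) and sog1-7 (median 0.545). In no genotype was any of the 8 called, and 1 in sog1-7 had an unadjusted p under 0.05. The part of these shoot markers in the lower IRT1 and FRO2 of the mutants, or in their deeper fall of IRT1, was not tested.

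**Figure D4:**
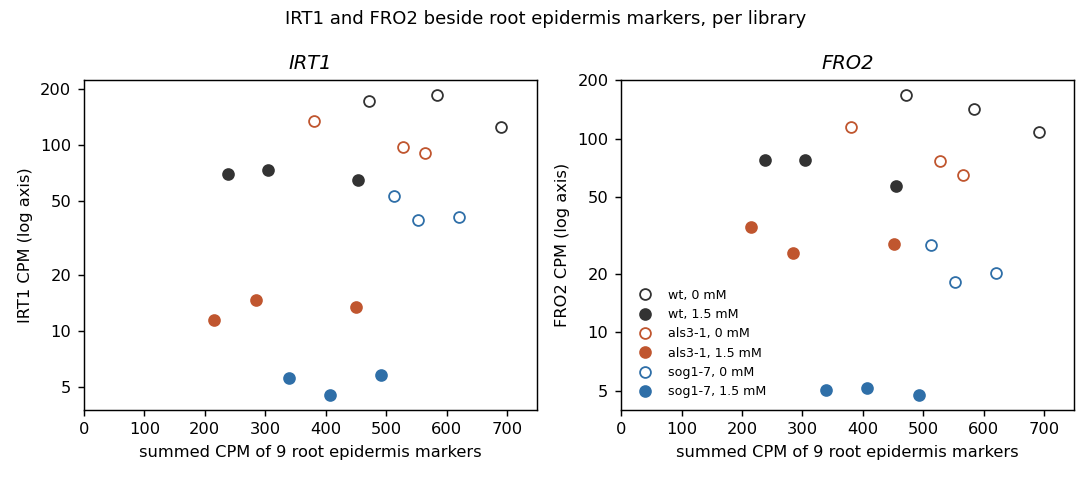
IRT1 (left) and FRO2 (right) in CPM on log axes against the summed CPM of 9 root epidermis and root hair markers on a linear axis, 1 point per library; open points 0 mM, filled points 1.5 mM. IRT1 is at 171.9 CPM in an untreated wild-type library with a marker sum of 471.6 CPM and at 4.528 CPM in a treated sog1-7 library with a sum of 407.4 CPM.

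The partner bHLH genes of subgroup Ib, which act with FIT1, were not called with aluminium. Of BHLH38, BHLH39, BHLH100 and BHLH101, 0 of 4 were called by edgeR's quasi-likelihood test in any of the 3 genotypes, none had an unadjusted p under 0.05, and the replicate block called none. Of all genes, 0.988%, 6.29% and 0.448% were called lower in wild type, als3-1 and sog1-7, and 0.896%, 4.56% and 0.739% higher. A count of 0 of 4 thus lies near the share of all genes. The median log2 fold change of the 4 partner genes was 0.78 in wild type, 0.27 in als3-1 and −0.37 in sog1-7. BHLH38 had 143.9, 222.5 and 6.166 CPM in wild type without and 222.6, 214.3 and 157.4 CPM with aluminium. Its replicate 4 stood far below the others, as it did in als3-1 at 0 mM (134.0, 136.3 and 14.86 CPM) and in sog1-7 at 0 mM (19.25, 26.65 and 3.967 CPM). BHLH39, BHLH100 and BHLH101 were also lowest in replicate 4 of each untreated group, and the spread in these groups limits what the test could detect. IRT1 in the same replicate 4 of wild type was the highest of its group, at 186.6 CPM. Between genotypes the partner genes did differ. Without aluminium the log2 fold changes of sog1-7 against wild type were −2.90 ± 0.97 for BHLH38, −2.49 ± 0.84 for BHLH39, −4.06 ± 1.26 for BHLH100 and −3.86 ± 1.06 for BHLH101, all with an unadjusted p under 0.05 and 1 of 4, BHLH101, called (adjusted p = 0.0302). There 4.92% of all genes were called lower, and without the low-rRNA libraries 0 of the 4 partner genes were called. In als3-1 with aluminium 0 of 4 were called against wild type, where 3.03% of all genes were called lower. In sog1-7 with aluminium all 4 were called lower than in wild type, where 3.65% of all genes were. Their log2 fold changes were −4.26 ± 1.03 for BHLH38, −3.88 ± 0.90 for BHLH39, −4.97 ± 1.31 for BHLH100 and −4.53 ± 1.07 for BHLH101. These calls rested on single libraries: all 4 ended without sog1-7 1.5 mM replicate 3 or 4 (adjusted p = 0.077 to 0.121), those of BHLH38, BHLH100 and BHLH101 without wild type 1.5 mM replicate 2 (0.0529 to 0.0711), and that of BHLH100 without wild type 1.5 mM replicate 3 or 4 (0.0634 and 0.0538). Their fold changes remained at −3.71 or further from 0 in these fits.

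**Figure D5:**
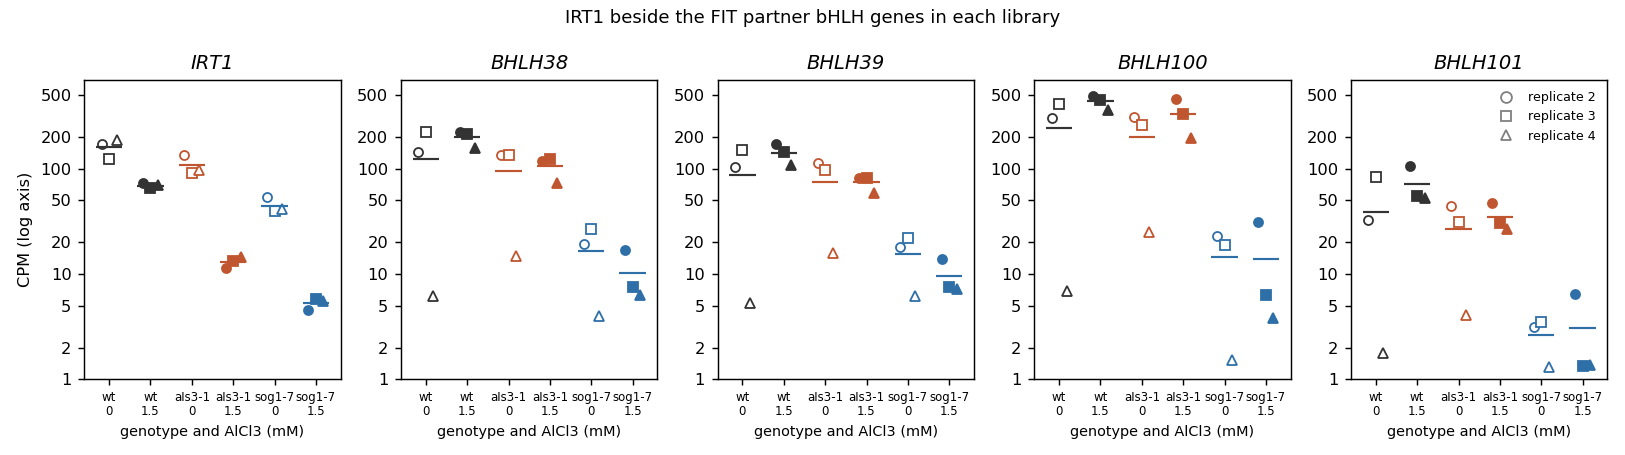
CPM of IRT1 and of the 4 partner bHLH genes on log axes in each library, by genotype and AlCl3 concentration; shapes are replicates, open points 0 mM, filled points 1.5 mM, and lines the arithmetic mean of 3 libraries. In every untreated group the triangle, replicate 4, lies lowest for the 4 bHLH genes, and not for IRT1.

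Other genes, from a list written for the FIT1 regulon, moved in part. The list includes the reductases FRO3 and FRO5, and control of its genes by FIT1 was not tested. Of 15 tested genes of this list, 2 were called lower with aluminium in wild type, 4 in als3-1 and 0 in sog1-7, where 0.988%, 6.29% and 0.448% of all genes were called lower. None was called higher, where 0.896%, 4.56% and 0.739% of all genes were. In sog1-7, 3 of 15 had an unadjusted p under 0.05, and the replicate block called 2. Their medians were −0.19, −0.21 and −0.29, far nearer to the median of all genes than those of the 5 uptake genes. The direction was mostly downward: log2 fold changes were below 0 for 13 of 15 in wild type, 11 in als3-1 and 13 in sog1-7. In the mean response over the 3 genotypes 14 of 15 were below 0. There 4 were called lower, as were 7.5% of all genes. IREG2, which loads metals into the vacuole, fell from 9.103, 5.606 and 7.561 CPM to 3.042, 3.142 and 2.763 CPM in wild type (−1.31 ± 0.21, adjusted p = 0.00288) and by 1.04 ± 0.20 in als3-1. HMA3 fell by 1.21 ± 0.22 in wild type and 2.18 ± 0.24 in als3-1, from levels of at most 2.316 CPM. In als3-1 the vacuolar zinc transporter MTP3 (−1.26 ± 0.20) and CYP82C4 (−4.12 ± 0.96), an enzyme of the iron-mobilising coumarins, were called too, at 4 of 15 against 5 of 15 with the replicate block. CYP82C4 lost its call when als3-1 0 mM replicate 4 or 1.5 mM replicate 2 or 3 was left out (adjusted p = 0.0505 to 0.0596) and without the low-rRNA libraries (0.0699).

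Regulators upstream of FIT1 and its partners were counted beside the shares of all genes. In wild type, als3-1 and sog1-7, 0.896%, 4.56% and 0.739% of all genes were called higher with aluminium. Called lower were 0.988%, 6.29% and 0.448%. Among so few regulators, counts of 0 or 1 called are no result about the group. Of 7 tested (BHLH34, BHLH104, BHLH115, BHLH121, ILR3, PYE and BTS), 0 were called in wild type and in sog1-7 and 1 was called higher in als3-1, namely ILR3, a bHLH factor of iron deficiency (0.34 ± 0.10, adjusted p = 0.0361). Its call ended without als3-1 0 mM replicate 2 or 3, als3-1 1.5 mM replicate 2 or 3, or wild type 1.5 mM replicate 3 (adjusted p = 0.0563 to 0.134). In wild type 1 of the 7 and in sog1-7 2 of the 7 had an unadjusted p under 0.05; in sog1-7 BHLH34 had a log2 fold change of −0.62 ± 0.15 (adjusted p = 0.0645, and 0.045 with the replicate block). The log2 fold changes of the iron-sensing ubiquitin ligase BTS were 0.71 ± 0.54, 0.23 ± 0.53 and −0.39 ± 0.53, and those of the repressor PYE 0.52 ± 0.35, 0.25 ± 0.35 and −0.56 ± 0.36. Of 9 tested regulators of the FIT1 and IRT1 proteins, BHLH25, a bHLH factor known to promote loss of FIT1 protein, fell in als3-1 from 4.614, 5.225 and 6.402 CPM to 1.013, 0.8419 and 0.8196 CPM (−2.59 ± 0.23, adjusted p = 4.82e-06). It was not called in wild type or sog1-7.

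Family relatives of the uptake genes were not called in the Al response of any single genotype. Of 10 tested ZIP transporters beside IRT1 and IRT2, 5 ferric reductases (FRO1, FRO4, FRO6, FRO7 and FRO8) and 9 proton pumps beside AHA2, 0 were called in any genotype by edgeR's quasi-likelihood test, though 6 ZIP transporters in als3-1 had an unadjusted p under 0.05. The replicate block called 6 ZIP transporters higher and 1 lower in als3-1 and 2 higher in sog1-7, 1 ferric reductase higher in als3-1, and 1 proton pump higher in wild type and in sog1-7. Averaged over the 3 genotypes, 3 of 10 ZIP transporters rose, IRT3 (0.36 ± 0.11), ZIP4 (0.54 ± 0.17) and ZIP12 (1.50 ± 0.46), and ZIP3 fell (−0.48 ± 0.15), at adjusted p = 0.0386 to 0.0473. Of the 9 proton pumps AHA3 (0.32 ± 0.09) and AHA7 (0.42 ± 0.10) rose in that mean response, and 0 of 5 ferric reductases were called or had an unadjusted p under 0.05. The mean response called 1328 of all 21650 genes higher and 1623 lower. IRT3, a zinc and iron transporter, had log2 fold changes of 0.16 ± 0.19, 0.53 ± 0.19 and 0.38 ± 0.19 in wild type, als3-1 and sog1-7, and with the block adjusted p of 0.319, 0.000339 and 0.0132. Those of FRO1, the neighbour of FRO2, were 0.64 ± 0.83, 0.29 ± 0.81 and 0.15 ± 1.15 at levels of 0.0336 to 3.567 CPM, and those of the reductase FRO3 0.44 ± 0.51, 0.09 ± 0.50 and −0.53 ± 0.51. AHA1, the closest pump to AHA2, had 0.03 ± 0.14, 0.12 ± 0.14 and 0.19 ± 0.14. Of 11 tested genes of iron transport and storage, 1 was called in each genotype, and it was the same gene, which rose: NRAMP3, which releases metal from the vacuole, by 0.82 ± 0.11 in wild type (adjusted p = 0.000599), 0.91 ± 0.10 in als3-1 (adjusted p = 4.47e-05) and 0.57 ± 0.10 in sog1-7 (adjusted p = 0.0103). Its call in sog1-7 was lost when 0 mM replicate 2 or 3 or 1.5 mM replicate 3 of that mutant was left out (adjusted p = 0.0531 to 0.0586) and without the low-rRNA libraries (0.0768). Over the 101 genes of all 11 lists, 3, 11 and 1 were called in wild type, als3-1 and sog1-7, where 408, 2348 and 257 of all 21650 genes were, so that in als3-1 and sog1-7 the lists lay near the share of all genes. With the replicate block 9, 24 and 9 of the 101 were called, and 803, 4085 and 573 of all genes.

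Likeness of pattern was described by the Pearson correlation of log2(CPM + 0.5) over the 18 libraries among 17836 genes. These libraries share groups, so a high value reflects group differences as well as single libraries. The genes most like IRT1 were the metallothionein MT1C (0.954), AT1G14185 (0.935), PP2-A8 (0.932), FRO2 (0.919) and AT1G21660 (0.913). FIT1 came 20th for IRT1 (0.838) and IRT2 172nd (0.728), while AHA2 stood at 0.0653. For FRO2 the highest were MTP3 (0.953), the glutathione transferase GSTL1 (0.941) and IRT1. IRT2 was most like AT4G20450 (0.925), the wall enzyme gene XTH13 (0.923) and AT1G10810 (0.923). FIT1 was most like AT3G01260 (0.943), PLL2 (0.939) and the potassium channel gene SKOR (0.934), and AHA2 most like GH9B5 (0.918), SLT1 (0.904) and AT4G22730 (0.900).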

How the data were processed

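Per the submitters' processing notes, the authors aligned reads with STAR 2.7.3a to TAIR10 and made the deposited gene counts with featureCounts 2.0.0. FPKM values were deposited too, and the same notes name Cufflinks 2.2.1. The library kit kept strand, per the labels' protocols. Neither the strand setting and multiple-match rule of the counting nor its annotation release was stated in the sources used.

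From the counts, 21650 genes that passed filterByExpr were fitted with edgeR 4.0.16 (R 4.3.3), with TMM scaling (factors 0.894 to 1.13), 1 mean per group over 18 libraries, glmQLFit (robust) and glmQLFTest, giving 13 contrasts with Benjamini-Hochberg adjustment over all genes tested and calls at an adjusted p under 0.05. SEs are log2 fold changes over the square root of F. The common biological coefficient of variation was 0.214, and 3 counts equal 0.0673 to 0.117 CPM. No label gives replicates as separate cultures, so p-values measure only how far these samples vary, which can be technical.

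The 10 alternatives were DESeq2's size factors in edgeR, library totals alone, no filter, DESeq2 1.42.0, limma 3.58.1 on log2(FPKM + 0.1) or log2(FPKM + 1), a replicate block, only the groups compared, no low-rRNA libraries, and a term for these, and each library was left out in turn. Replicates are numbered 2, 3 and 4 in the titles. Deviations of same-numbered libraries from their group means correlated at −0.0496 to 0.755 (43 of 45 pairs above 0.1), different numbers at −0.587 to 0.190, and the block is given in comparisons whose pairs all exceed 0.1.

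The 5 genes and 11 lists (101 genes) were chosen with earlier results of these data known. Named beside the 5 are list genes called in an Al response, partner and upstream bHLH genes, IRT3, FRO1, FRO3, AHA1 and the genes of highest correlation; any others were chosen after their values were seen. The result of 1 marker gene is not reported here. Promoters come from RefSeq's TAIR10.1.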

Additional observations from a re-analysis of the deposited data

Results flagged for a closer look

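The Al response of IRT1 differed between genotypes by edgeR's quasi-likelihood test of the interaction. It differed from that of wild type by −1.82 ± 0.25 log2 units in als3-1 (adjusted p = 0.00398, lower in 3 of 3 pairs in both genotypes), a call that ended in 2 of 10 alternatives, both in FPKM (0.0583 and 0.0818), and by −1.86 ± 0.26 in sog1-7 (adjusted p = 0.0482), the second call ending in 6 of 10 alternatives.

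The Al response of BHLH25 differed by −2.78 ± 0.31 log2 units between als3-1 and wild type (adjusted p = 0.00128) and by −2.39 ± 0.31 between als3-1 and sog1-7 (adjusted p = 0.0011). Group means were 2.44 and 2.77 CPM in wild type without and with aluminium, 5.41 and 0.892 CPM in als3-1, and 4.41 and 3.82 CPM in sog1-7.

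The Al response of HMA3 differed by −1.75 ± 0.34 log2 units between als3-1 and sog1-7 (adjusted p = 0.0155), from 1.43 to 0.313 CPM in als3-1 and from 0.507 to 0.378 CPM in sog1-7. This call ended without the low-rRNA libraries (−1.83, adjusted p = 0.113), with only the groups compared (0.0721) and in FPKM (0.14 and 0.159).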

How the results depend on the processing

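Over 13 comparisons and 10 alternatives, 584 of 645 values of the 5 genes kept their direction and their side of the threshold, 30 lost the call, 26 gained one and 5 changed sign. Without 1 library, 1108 of 1170 did, with 45 losses, 3 gains and 14 changes of sign. The count of members called in the wild-type Al response was 1 with library totals alone and with both FPKM pseudocounts, and 1 to 3 without 1 library. It stayed at 4 in als3-1 and lay at 2 to 3 in sog1-7 without 1 library. For the difference of als3-1 from wild type it was 2 with DESeq2 and with the replicate block, 0 with both FPKM settings, and 1 to 2 without 1 library. For that of sog1-7 from wild type it was 0 with library totals, FPKM, only the groups compared, without the low-rRNA libraries and with a term for them, and 0 to 1 without 1 library. At 0 mM, als3-1 against wild type had 1 call with DESeq2 and with the low-rRNA term, 2 with the replicate block and 0 to 1 without 1 library. There sog1-7 against wild type had 4 with the replicate block and with the low-rRNA term, although its same-numbered pairs did not all correlate. Against sog1-7 at 0 mM, als3-1 had 1 with FPKM, 0 with only the groups compared and 1 to 2 without 1 library. At 1.5 mM, als3-1 against wild type had 2 with FPKM and with only the groups compared and 2 to 4 without 1 library, and sog1-7 against wild type had 2 to 3. The mean Al response kept 4 without any 1 library, while AHA2 passed with 6 of 9 alternatives. Of the 101 list genes, calls in wild type were 5 with DESeq2, 9 with the replicate block, 1 with only the groups compared and 3 to 4 without 1 library. In als3-1 they were 24 with the block, 17 with the low-rRNA term and 8 to 14 without 1 library. In sog1-7 they were 5 with DESeq2, 9 with the block, 3 with the low-rRNA term, 0 with FPKM, only the groups compared or without the low-rRNA libraries, and 0 to 2 without 1 library.

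Values that changed sign had not been called. The difference of als3-1 and sog1-7 in the IRT1 response was −0.00557 with library totals and −0.116 without the low-rRNA libraries, and −0.107 to 0.234 without 1 library. IRT2 in sog1-7 against wild type at 0 mM was 0.011 with library totals, 0.107 and 0.0904 in FPKM, and −0.319 to 0.125 without 1 library. Without 1 library, IRT2 in the wild-type response ran from −0.427 to 0.115, FIT1 from −0.588 to 0.0914 and AHA2 from −0.0488 to 0.173 in the sog1-7 difference from wild type, FIT1 from −0.0004 to 0.532 at 0 mM and from −0.579 to 0.0539 at 1.5 mM for als3-1 against sog1-7, and AHA2 from −0.0128 to 0.14 for als3-1 against wild type at 1.5 mM.

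Library totals alone moved the median log2 value of all genes to 0.163 for als3-1 and 0.154 for sog1-7 against wild type at 0 mM. The cause of these changes was not tested. The mean response has no fit with only the groups compared. With 3 libraries a group, values near the threshold depend on single libraries, and FIT1 and IRT2, at a few CPM in treated mutants, have the widest errors of the 5 genes.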

Other observations

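In the untreated groups, FRO3, BTS and the 4 partner bHLH genes were lowest in replicate 4 of every genotype and the ferritin gene FER1, which codes for an iron store, was highest there. In replicates 2, 3 and 4 the level of FER1 was 43.81, 42.4 and 92.71 CPM for wild type, 23.45, 33.64 and 90.71 CPM for als3-1, and 58.11, 78.69 and 105.3 CPM for sog1-7. IRT1 and FRO2 were not lowest in that replicate in any genotype, and FIT1 was in wild type and als3-1. These genes were chosen after their values were seen, and the difference between replicates was not tested.

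Genes of the list written for the FIT1 regulon also differed between genotypes. In sog1-7 against wild type at 0 mM, 7 of 15 were called lower and 1 higher by edgeR's quasi-likelihood test, and at 1.5 mM 6 lower and 1 higher, where 4.92% and 3.65% of all genes were called lower. In als3-1 against wild type at 1.5 mM, 3 were called lower, with 3.03% of all genes. The comparisons share the wild-type libraries. Of the 7 upstream regulators, PYE (−1.88) and BTS (−2.68) were called lower in sog1-7 than in wild type at 1.5 mM.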
